A study of Mus musculus with 43 samples.

Results

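C/D box snoRNAs are short nucleolar RNAs that pair with ribosomal RNA and direct methylation of its ribose groups, and a few of them are needed to cut the ribosomal precursor RNA itself. Each carries a box C near its start and a box D near its end, where the proteins Nop58, Nop56, Snu13 and fibrillarin assemble into an snoRNP. In mammals most are released from introns of host genes, many of which encode ribosomal proteins or translation factors, so they are RNAs of every transcribing nucleus. The members described here are all rows whose name starts with Snord, 95 of the 5364 RNAs listed over the small RNA count tables of the series. U3, a C/D box snoRNA listed under Rnu3 names, is not among them. Those 95 rows carry 95 gene identifiers and 94 symbols, because Snord80 is the symbol of a pair of overlapping annotated genes.

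Small RNAs were sequenced from FVB mice aged 8 to 12 weeks. The mice were either wild type (WT) or homozygous for a CRISPR deletion of the Rnase9-12 cluster on chromosome 14 (KO). The cluster holds ribonuclease A family genes expressed in the epididymis, and the paper detected no RNA cleavage by their recombinant proteins in vitro. The deletion removes all genes of the cluster together, so no group separates them. Tissue of the caput, corpus and cauda, the proximal, middle and distal epididymis, was measured by ARM-seq in 17 libraries, 3 per genotype and segment but 2 for KO corpus. Fluid of the same segments, cleared of sperm, vesicles and debris (18 libraries, 3 per group), and cauda sperm (8 libraries, 4 per genotype) were measured by OTTR-seq, each library from 3 pooled mice. All RNA was treated with polynucleotide kinase, which makes fragment ends ligatable. In 1 WT caput tissue library and the 6 caput fluid libraries the section field of the labels reads cauda and the title caput, and the titles were followed.

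Tissue listed 82 members among 4890 RNAs, fluid 60 among 3178 and sperm 94 among 4323. 60 members were listed in all 3 tables, 21 in tissue and sperm, 13 in sperm only and 1, Snord107, in tissue only. The 13 sperm-only rows are copies of Snord116, the Prader-Willi region snoRNA, and they held only 3 distinct patterns of counts, summed to 18 to 20 reads over the 8 libraries. Copies with the same sequence cannot be told apart in these counts. By the GRCm38 annotation 92 of the 95 rows lie in an intron of at least 1 transcript of a gene on the same strand, 57 of them in protein-coding hosts. Snord13, Snord118 and Snord104 have no such host. Member transcripts are 64 to 238 nt long with a median of 83 nt. A box C written TGATGA within the first 20 nt and a box D written CTGA within the last 20 nt, on the RNA strand, were both found in 64 of 95 members (67.4%) and in 0 of 41 H/ACA box snoRNAs of the same tables, whose transcripts are 121 to 205 nt long.

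The sequences of 11 members that the results turn on are given here 5′ to 3′ as DNA letters from the GENCODE transcripts of GRCm38, with box C and box D in capitals where these letters occur in those windows. Snord89 is the member that differed most between segments, Snord96a, Snord80 and Snord88a stood first in KO against WT cauda tissue, Snord2, Snord37, Snord50a and Snord50b were called in fluid, and Snord104, Snord14c and Snord14d were among the most abundant in fluid and sperm.
Snord89: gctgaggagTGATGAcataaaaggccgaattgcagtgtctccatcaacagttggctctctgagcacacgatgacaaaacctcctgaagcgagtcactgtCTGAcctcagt
Snord96a: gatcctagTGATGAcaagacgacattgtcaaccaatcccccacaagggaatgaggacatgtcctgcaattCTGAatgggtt
Snord80: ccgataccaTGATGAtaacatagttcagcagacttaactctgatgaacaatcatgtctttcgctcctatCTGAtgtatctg
Snord88a: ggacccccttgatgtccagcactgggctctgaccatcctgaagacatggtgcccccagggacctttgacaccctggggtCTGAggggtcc
Snord2: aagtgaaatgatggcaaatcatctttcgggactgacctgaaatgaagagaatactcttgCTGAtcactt
Snord37: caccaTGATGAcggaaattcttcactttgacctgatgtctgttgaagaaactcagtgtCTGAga
Snord50a: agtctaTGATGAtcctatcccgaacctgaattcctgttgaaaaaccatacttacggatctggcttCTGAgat
Snord50b: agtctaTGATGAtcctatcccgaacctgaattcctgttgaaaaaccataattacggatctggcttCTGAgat
Snord104: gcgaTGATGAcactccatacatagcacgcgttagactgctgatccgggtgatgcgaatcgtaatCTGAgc
Snord14c: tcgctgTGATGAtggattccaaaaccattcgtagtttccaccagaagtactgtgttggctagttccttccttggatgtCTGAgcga
Snord14d: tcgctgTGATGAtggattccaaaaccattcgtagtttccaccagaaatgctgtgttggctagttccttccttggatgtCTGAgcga

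Snord89 lies at chr1:39548745-39548854 on the minus strand, within an intron of the processed transcript Gm15832. Snord96a lies at chr11:48802032-48802112 on the plus strand in an intron of Rack1, which encodes a protein of the small ribosomal subunit. Snord80 lies at chr1:161037601-161037681 on the plus strand in an intron of Gas5, a noncoding snoRNA host, and Snord88a at chr7:44250135-44250224 on the plus strand in an intron of 2410002F23Rik. Snord2 lies at chr16:23108953-23109021 on the plus strand in an intron of Eif4a2, a translation initiation factor gene, and Snord37 at chr10:81178950-81179013 on the plus strand in an intron of Eef2, the elongation factor gene. Snord50a at chr9:88521529-88521600 and Snord50b at chr9:88521797-88521868, both on the minus strand in introns of Snhg5, differ at 1 of 72 positions. Snord14c at chr9:40803583-40803668 and Snord14d at chr9:40803995-40804080, both on the plus strand in introns of Hspa8, differ at 2 of 86 positions. A fragment that avoids those positions matches both relatives and can be counted on both, so the relatives are not independent measurements. Snord50a and Snord50b had the same count in 10 of 18 fluid libraries.

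Depth differed widely, with summed counts of 30142156 to 249732710 per tissue library, 1948718 to 12320922 in fluid and 1134840 to 62128314 in sperm. A read could be counted on more than 1 listed RNA, as the rows of Snord80 show, whose counts were equal in 15 of 17 tissue libraries and in all fluid and sperm libraries. Tissue libraries numbered replicate 3 stood apart. Of all RNAs tested, 6.05% were lower in all 5 of them than in the other 12. So were 4 of 82 members (Snord17, Snord15b, Snord15a and Snord22). A further 2.69% of all RNAs were higher in all 5, as was 1 member, Snord45b. The pattern was thus not particular to the members. Among sperm libraries WT replicate 4 stood apart, as described below. Levels are given as CPM, the usual depth-scaled count, here over the TMM-scaled library size. In tissue, summed microRNAs that mark red blood cells and leukocytes did not exceed 0.24 CPM, and the germ cell microRNAs Mir34b and Mir34c did not exceed 0.46 CPM. For scale, the epithelial miR-200 group summed to only 7.57 to 25.9 CPM in tissue. In sperm the germ cell list, with 4 rows there, summed to 17.9 to 47.2 CPM. The low tissue values therefore do not measure carry-over of blood or sperm.

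The Snord rows took 0.0988% to 0.412% of the counts in tissue, 0.121% to 0.844% in sperm and 0.00286% to 0.0106% in fluid. These shares leave out U3, whose 10 rows summed to 3264 to 19175 CPM in tissue, against 1029 to 6372 CPM for the Snord rows. In fluid U3 summed to 285 to 695 CPM against 37.9 to 96.1 CPM, and in sperm to 624 to 3092 CPM against 1238 to 9224 CPM. Because tissue was prepared by ARM-seq and fluid and sperm by OTTR-seq, and the tables were made separately, the levels stand side by side without a test between tables. In tissue all 82 members had counts in every library but 1, which detected 81, and fluid libraries held only 195 to 906 summed member counts, with 31 to 57 of 60 members detected. The lowest fluid share, 0.00286% in WT cauda fluid replicate 3, rested on 254 counts, with a 95% Wilson interval of 0.00253% to 0.00323%. Intervals cover counting error only.

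**Figure D1:**
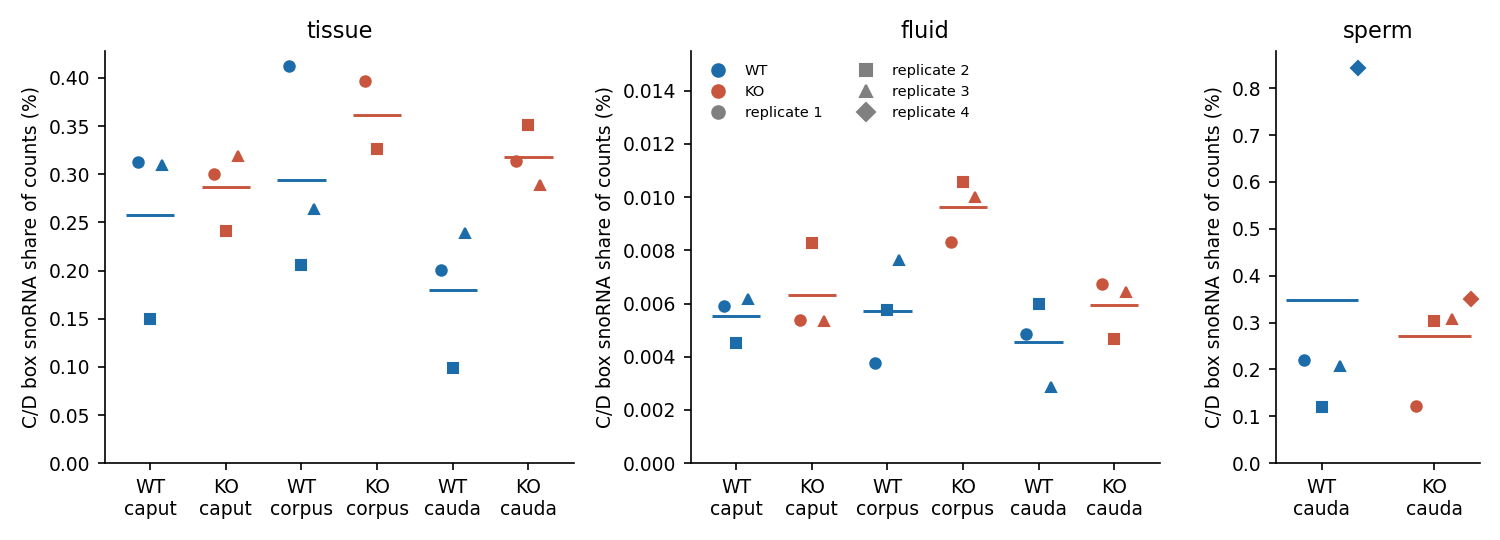
Share of each library's counts on the Snord rows (percent, linear axes from 0 that differ between panels) in tissue, fluid and sperm, with replicates as marker shapes and the group mean as a line. The 3 KO cauda tissue libraries lie between 0.289% and 0.351% and all WT cauda tissue libraries at or below 0.239%, and WT sperm replicate 4 lies at 0.844%.

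The order of the members by level per length differed from table to table. Levels are given as CPM per 100 nt of transcript, averaged over WT groups. In tissue Snord2 was first at 416 CPM per 100 nt, followed by Snord21 at 169, Snord15b at 153, Snord49a at 126, Snord16a at 120.1, Snord50b at 90.8, Snord104 at 75.7 and Snord83b at 72.8. The median member stood at 12.9 and the lowest at 0.102. In sperm Snord104 was first at 569.8 CPM per 100 nt, followed by the Snord80 rows at 256 and 244, Snord14d at 222, Snord14c at 217, Snord37 at 203, Snord96a at 182 and Snord33 at 139. These means include WT replicate 4, a library that stood apart. Without it, a choice made after seeing the data, the Snord80 rows were first at 142.96 and 136, followed by Snord50a at 108, Snord50b at 105, Snord104 at 103, Snord14d at 88.1 and Snord14c at 85.5. In fluid Snord104 was again first, at only 5.83 CPM per 100 nt, followed by Snord22 at 4.87, Snord50a at 4.34, Snord50b at 4.25, Snord14c at 3.73, Snord14d at 3.66, Snord17 at 3.09 and Snord15b at 2.996. Over the WT segments the fluid means of Snord104 ran from 4.13 to 8.99 and those of Snord22 from 3.32 to 7.47, so these neighbours in the order overlapped.

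The comparison of KO with WT cauda tissue asked whether deletion of the cluster changed the small RNAs of the distal epididymis. The Snord members were nearly all measured higher in KO. Their log2 fold change was positive in 81 of 82, with a median of 1.27 (quartiles 0.80 and 1.52). Over all 3488 RNAs tested the median was 0.12 and 56.1% were positive. With edgeR's quasi-likelihood test, 0 of 82 members passed an adjusted p below 0.05 with an absolute log2 fold change above 1, against 0.86% of all RNAs called, and 47 had an unadjusted p below 0.05, against 15.1% of all RNAs. DESeq2 called 17 of 80 members, all higher, against 7.74% of all RNAs. Same-numbered tissue libraries deviated together in this comparison, and edgeR with a block for replicate number called 50 of 81 members, all higher, against 14.4% of all RNAs called and 9.33% called higher. That fit held only the KO and WT cauda libraries, with its own filter and estimate of spread, so more than the block changed. With that block and library size only, a setting chosen after seeing the data, 10 were called, against 16.9% of all RNAs. Replicate 3 stood apart in both genotypes, so the joint deviation does not show that numbers 1 and 2 pair libraries.

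Every KO cauda tissue library lay above every WT one for 40 of 82 members, against 6.91% of all RNAs. KO exceeded WT in 78 of 82 members between the libraries numbered 1 (median log2 difference 1.08), in 81 between those numbered 2 (1.88) and in 69 between those numbered 3 (0.40). Without the replicate 3 libraries, an alternative chosen after seeing the data, 20 of 81 members were called, all higher, against 8.56% of all RNAs, and without KO cauda replicate 3 alone 8 of 82, against 2.21%. Library scaling moved the size of the difference. With library size alone in place of TMM factors the median of all RNAs shifted by -0.54, and the members' median was 0.60 with 66 of 82 positive. Relative to the median of all RNAs the members stood at 1.16 with TMM and 1.02 with library size alone.

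**Figure D2:**
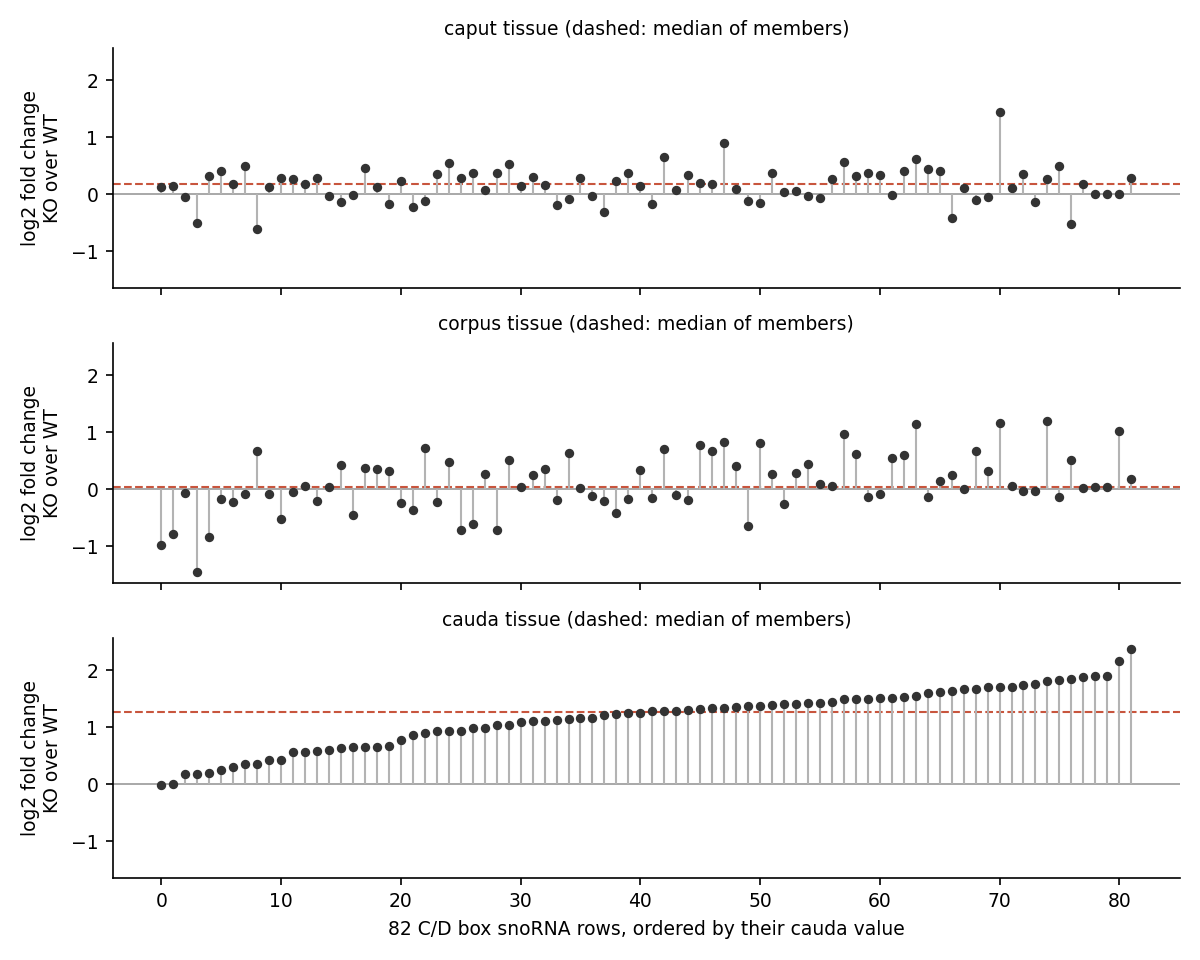
Log2 fold change of KO over WT for the 82 C/D box snoRNA rows in caput, corpus and cauda tissue, with rows in the same order, that of their cauda value, in each panel. The dashed median lies at 0.17 in caput, 0.05 in corpus and 1.27 in cauda.

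Snord96a had the smallest p. Its level was 25.5, 19.5 and 28.4 CPM in WT cauda tissue and 109, 201 and 72.8 CPM in KO, so the genotypes did not overlap and KO replicate 3 was the lowest of the KO libraries. The log2 fold change was 2.38 ± 0.55 (SE, n = 3 per group; edgeR adjusted p = 0.057), and 2.28 ± 0.36 with the replicate block (edgeR adjusted p = 5.6e-08). Snord95, in another intron of the same host gene Rack1, read 21.7, 15.96 and 41.5 CPM in WT and 69.9, 122 and 89.9 CPM in KO, again without overlap (log2 fold change 1.83 ± 0.54, edgeR adjusted p = 0.13, with the block 8e-06).

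Snord80 read 32.8, 26.8 and 33.4 CPM in WT and 104, 182 and 60.6 CPM in KO cauda tissue, with no overlap (log2 fold change 1.90 ± 0.47, edgeR adjusted p = 0.075, with the block 4.7e-05). Of the other Gas5-hosted members, Snord47 had a log2 fold change of 1.70 (edgeR adjusted p = 0.17, with the block 0.00089), while Snord78 had 0.20 (edgeR adjusted p = 0.89). Members released from 1 host thus had unlike values here. Snord88a was very even in WT, at 5.68, 5.53 and 5.44 CPM, and read 18.3, 15.9 and 8.23 CPM in KO (log2 fold change 1.35 ± 0.33, edgeR adjusted p = 0.075, with the block 0.0046). Its neighbour Snord88c, from the same host, had a log2 fold change of 0.18 (edgeR adjusted p = 0.82).

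Snord2, the most abundant member of tissue, read 201, 123 and 337 CPM in WT and 612, 722 and 675 CPM in KO cauda tissue, so even the highest WT library lay below the lowest KO library (log2 fold change 1.61 ± 0.62, edgeR adjusted p = 0.21, with the block 6.3e-05). Snord83b, in an intron of the ribosomal protein gene Rpl3, read 92.04, 55.96 and 40.6 CPM in WT and 334, 234 and 97.3 CPM in KO. The lowest KO library of Snord83b was only just above the highest WT one (log2 fold change 1.82 ± 0.61, edgeR adjusted p = 0.16, with the block 4.7e-05).

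**Figure D3:**
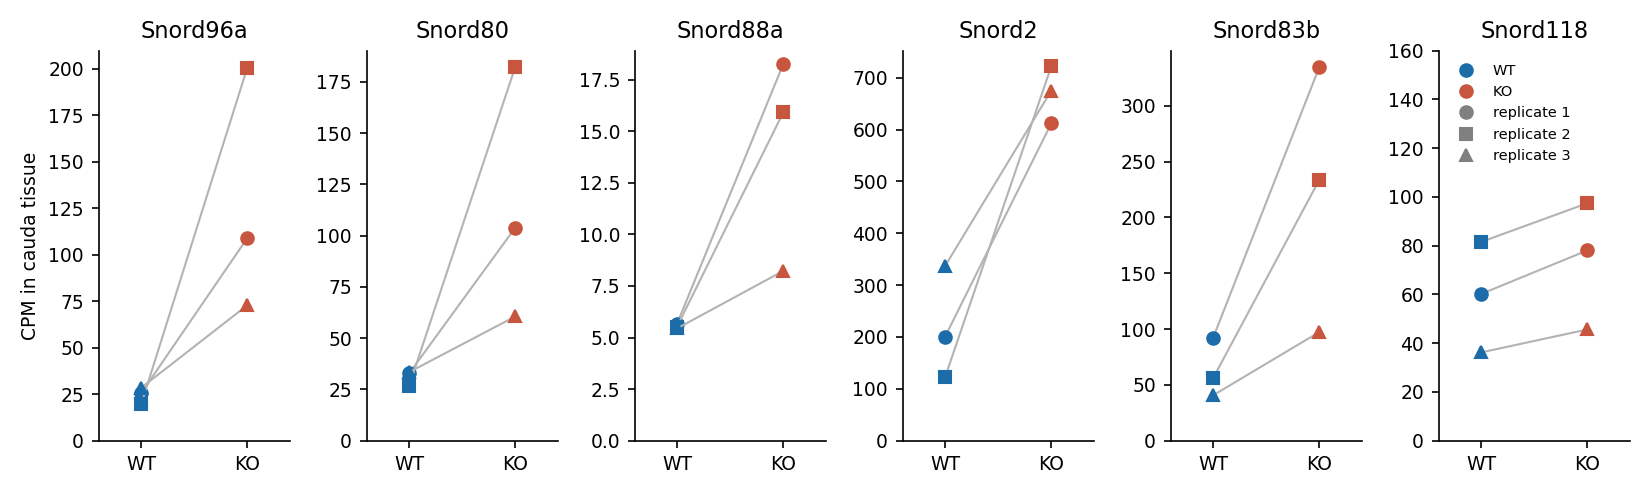
CPM of 6 C/D box snoRNAs in each cauda tissue library (linear axes from 0), with lines joining WT and KO libraries of the same replicate number. KO is above WT along every line, and replicate 3 has the smallest step for all 6.

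Among the members needed to cut the ribosomal precursor, Snord118 and the Snord14 rows lay below the lower quartile of the 82 members and Snord22 lay between the quartiles. Snord118 (U8), needed for the 5.8S and 28S RNAs, read 60.2, 81.5 and 36.2 CPM in WT and 78.1, 97.4 and 45.6 CPM in KO cauda tissue, with overlap between genotypes (log2 fold change 0.31 ± 0.35, edgeR adjusted p = 0.72). The 4 rows of Snord14 (U14), needed for 18S RNA, had log2 fold changes of 0.61 to 0.67, and none was called with or without the block. Snord22 (U22), also needed for 18S RNA, had 1.04 (edgeR adjusted p = 0.43) and 0.98 with the block, under the fold required. Snord13 (U13), which takes part in acetylation of 18S RNA, had 1.11 (edgeR adjusted p = 0.15) and was called with the block (log2 fold change 1.06, edgeR adjusted p = 0.023). Of the 4 Rpl13a-hosted members, Snord32a had 1.16 and was called with the block, and Snord33, Snord35a and Snord34 had 0.999, 0.57 and 0.18 and were not. The 57 members in protein-coding hosts had a median log2 fold change of 1.21, and the 17 in processed transcripts 1.42. Snord64 and Snord107, of the imprinted Prader-Willi region, had 0.94 (edgeR adjusted p = 0.59) and 0.36 (edgeR adjusted p = 0.87). Snord45b had the lowest value, -0.01.

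Other classes of RNA in the same libraries gave the following values. Small Cajal body RNAs guide modification of spliceosomal RNAs. Their 9 Scarna-named rows had a median log2 fold change of 1.14, with 8 positive, 7 at an unadjusted p below 0.05 and 0 called. Over all 27 rows annotated as this class the median was lower, at 0.64, with 18 positive and 0 called. The summed level of the 9 Scarna rows was 41.2, 42.1 and 20.02 CPM in KO cauda tissue and 18.5, 14.9 and 13.6 CPM in WT, without overlap. H/ACA box snoRNAs had a median of 0.68, with 38 of 41 positive and 0 called, and 4 of 41 were higher without overlap. The 335 further rows annotated as snoRNA, with neither a Snord nor a Snora name, had a lower median of 0.38. Of these, 241 were positive and 1 was called, against 0.86% of all RNAs called. The summed U3 rows read 4672 to 19175 CPM in KO cauda tissue and 3264 to 5912 CPM in WT, with overlap. Outside the nucleolus, mitochondrial tRNAs had a median of 0.87 with 19 of 20 positive, and full-length tRNAs 0.62 with 47 of 53 positive, again with 0 called. The snRNA class stood at 0.10 with 334 of 599 positive, and microRNAs at -0.14 with 99 of 230 positive. The summed level of the H/ACA rows was 671, 623 and 234 CPM in KO cauda tissue and 350.2, 358 and 183 CPM in WT, so it was high in KO replicates 1 and 2 and not in replicate 3. Summed Rn7sk and spliceosomal Rnu rows read 26679, 22840 and 8083 CPM in KO and 14256, 14442 and 8971 CPM in WT, with overlap, KO replicate 3 being the lowest library. The smooth muscle microRNAs Mir143 and Mir145a summed to 107.4 to 140.3 CPM in KO and 107.6 to 215.5 CPM in WT, and the epithelial miR-200 group to 7.79 to 13.1 against 8.66 to 15.7 CPM. Their part in the result was not tested. In bulk tissue, more cells of a type and more RNA per cell cannot be told apart.

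In caput tissue no member passed the test between KO and WT. 0 of 82 members were called by edgeR and by DESeq2, against 0% of all RNAs, 0 had an unadjusted p below 0.05, against 0.975%, and the median log2 fold change was 0.17, where all RNAs stood at 0.04. No member had groups that did not overlap, against 7.22% of all RNAs. The smallest p belonged to Snord4a (log2 fold change 0.49 ± 0.36, edgeR adjusted p = 0.9996), which read 3.04, 2.85 and 5.86 CPM in WT and 5.30, 4.28 and 6.98 CPM in KO. Snord23 (0.46) and Snord67 (0.89) followed, with the same adjusted p. The direction of the median did not hold under another scaling, since it was -0.01 with library size alone.

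In corpus tissue, with 2 KO libraries, 0 of 82 members were called by edgeR and by DESeq2, against 0% and 0.854% of all RNAs, and 1 had an unadjusted p below 0.05, against 8% of all RNAs. The median log2 fold change of the members was 0.05, and -0.22 with library size alone, when all RNAs stood at -0.38. The member with that p was Snord34, at 0.806, 0.464 and 0.956 CPM in WT and 0.345 and 0.210 CPM in KO, without overlap (log2 fold change -1.45 ± 0.62, edgeR adjusted p = 0.58). Snord45b (-0.98) and Snord88a (0.67) came next and did not pass. No KO library is numbered 3 here, and without all replicate 3 tissue libraries the median log2 fold change was -0.17. Groups did not overlap for 13 of 82 members, 9 of them higher, against 27% and 11.8% of all RNAs. Smooth muscle microRNAs were lower in KO without overlap, at 24.3 to 29.5 against 44.2 to 87.5 CPM. So were epithelial ones, at 10.5 to 10.7 against 16.3 to 25.9 CPM, while germ cell ones overlapped. MicroRNAs had a median log2 fold change of -0.999, with 38 of 230 positive. The piRNA rows, described below, had -1.15, with 2 of 232 positive. The part of these classes in the result was not tested.

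The difference between the KO effects in cauda and caput was tested as an interaction. Its log2 value was positive in 77 of 82 members, against 53.6% of all RNAs, with a median of 1.02, against 0.07 for all RNAs, and 0 members were called, against 0% of all RNAs. 13 members had an unadjusted p below 0.05, all positive, against 6.05% of all RNAs, and 0 were called by DESeq2, against 0%. The smallest p belonged to the Snord80 rows (1.89 ± 0.65, edgeR adjusted p = 0.72) and Snord96a (2.09 ± 0.75, edgeR adjusted p = 0.73). The effect of the deletion was therefore not shown to differ between these segments for any member.

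Along the WT duct Snord89 was the one member with a large fall. Its level was 23.5, 30.1 and 30.0 CPM in WT caput tissue, 11.4, 8.94 and 2.13 CPM in corpus and 1.19, 2.10 and 0.97 CPM in cauda. The segments did not overlap, though corpus replicate 3 lay just above the highest cauda library. Against caput, the log2 fold change was -4.31 ± 0.64 in cauda (n = 3 per group; edgeR adjusted p = 9.9e-05) and -1.90 ± 0.58 in corpus (edgeR adjusted p = 0.042). In KO it read 49.96, 55.6 and 26.3 CPM in caput, 10.2 and 14.3 CPM in corpus and 4.81, 4.51 and 1.10 CPM in cauda, a log2 fold change of -3.68 ± 0.62 from caput to cauda (edgeR adjusted p = 0.00030). The cauda fall of Snord89 kept its call under every alternative run in both genotypes, and the corpus fall lost its call when the groups were fitted alone (edgeR adjusted p = 0.11) or when any library but WT corpus replicate 1 was left out (edgeR adjusted p = 0.065 to 0.096). The smooth muscle microRNAs differed between the same segments without overlap, at 20.6 to 40.3 CPM in WT caput, 44.2 to 87.5 CPM in corpus and 107.6 to 215.5 CPM in cauda. The piRNA rows, a class the paper describes as enriched in testicular sperm, had a median log2 fold change of 3.52 in WT cauda against caput. In WT corpus against caput it was 2.55, and 221 and 188 of 232 piRNA rows were called. The part of either class in the result was not tested. The WT caput library whose section field reads cauda is the third caput value, 30.0 CPM.

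**Figure D4:**
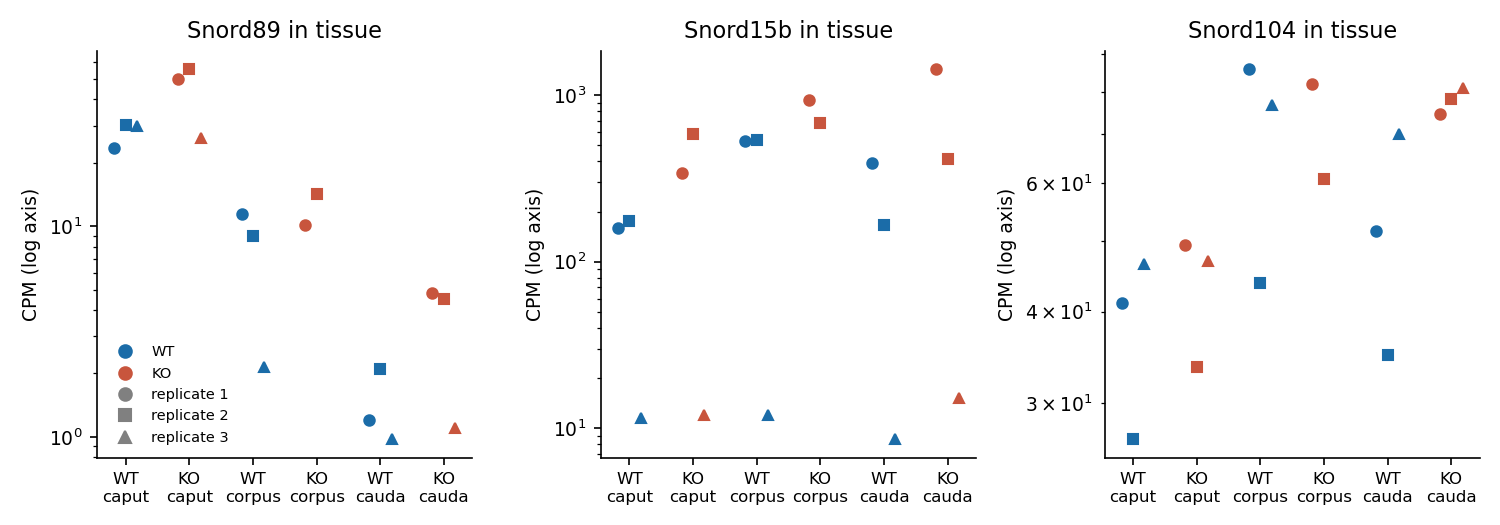
CPM (log axis) of Snord89, Snord15b and Snord104 in each tissue library by segment, genotype and replicate. Snord89 falls from caput to cauda in both genotypes, Snord15b lies between 8.57 and 15.3 CPM in all replicate 3 libraries and at 159 CPM or more in the others, and Snord104 lies between 26.8 and 85.8 CPM.

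Snord89 was the single member called in WT cauda against caput tissue, 1 of 82 against 23% of all RNAs, and by DESeq2 too, against 21.2%. It was also the only one of the 82 with an unadjusted p below 0.05, against 33.9% of all RNAs. With the replicate block 6 of 81 members were called, 3 higher and 3 lower, against 29.9% of all RNAs. The 5 besides Snord89 were Snord65, Snord82 and Snord57, higher in cauda by 1.32, 1.03 and 1.02 on the log2 scale, and Snord64 and Snord53, with -1.18 and -1.05. Without the block Snord23 (0.65) and Snord35b (-0.45) followed Snord89 and did not pass. The median member stood at -0.19 and all RNAs at -0.05.

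In WT corpus against caput tissue Snord89 was again the single member called by edgeR and by DESeq2, 1 of 82 against 11.8% and 12.8% of all RNAs, and 11 had an unadjusted p below 0.05, against 23.8%. The median log2 fold change was 0.36 with 66 of 82 positive, against 0.08 and 53.8% for all RNAs. Snord57, hosted by the snoRNP protein gene Nop56, read 14.7, 5.25 and 9.13 CPM in caput and 60.5, 15.1 and 13.96 CPM in corpus (log2 fold change 1.62 ± 0.58, edgeR adjusted p = 0.083), and Snord104 had 0.85 ± 0.33 (edgeR adjusted p = 0.11). With the replicate block 10 of 81 members were called, 9 of them higher, against 17.8% of all RNAs called and 14.3% called higher. Snord57 was among the 9, with 1.44 ± 0.37 (edgeR adjusted p = 0.0012).

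In KO cauda against KO caput tissue 15 of 82 members were called, 14 higher and Snord89 lower, against 25.7% of all RNAs called. An unadjusted p below 0.05 was found for 35 of 82, against 40.2%. The median was 0.91 with 72 of 82 positive, against 0.03 and 51% for all RNAs. Snord83b had the smallest p of the higher ones, at 77.5, 39.3 and 24.8 CPM in caput and 334, 234 and 97.3 CPM in cauda, without overlap (log2 fold change 2.23 ± 0.62, edgeR adjusted p = 0.012). Snord68 followed with 2.18, Snord12 with 1.48, Snord50b with 1.60, Snord57 with 1.91, Snord55 with 1.72, Snord50a with 1.51, Snord65 with 2.44, Snord14a with 1.01 and Snord49b with 1.15, at edgeR adjusted p of 0.019 to 0.030. With the replicate block 32 of 81 were called, 31 higher, against 30.9% of all RNAs called and 21.2% called higher. DESeq2 called 15, against 22.2%. Leaving out 1 library gave 1 to 30 calls, with 30 without KO cauda replicate 3, against 31% of all RNAs, 5 without KO cauda replicate 1, against 23.9%, 2 without KO cauda replicate 2 or KO caput replicate 2, against 18.8% and 20.8%, and 1 without KO caput replicate 3, against 20.5%. With library size alone 1 was called, Snord89, and the median was -0.04, when all RNAs stood at -0.73. The KO cauda libraries are the same ones as in the KO against WT comparison. The smooth muscle microRNAs summed to 107.4 to 140.3 CPM in KO cauda and 23.5 to 39.8 CPM in KO caput, without overlap. The epithelial group overlapped, at 7.79 to 13.1 against 11.4 to 22.4 CPM, and the part of these in the result was not tested.

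Snord15b, hosted by the ribosomal protein gene Rps3, showed how far the replicate number reached. It read 159 and 174 CPM in WT caput replicates 1 and 2 and 11.5 CPM in replicate 3, and 1431 and 414 CPM in KO cauda replicates 1 and 2 and 15.3 CPM in replicate 3. In KO against WT cauda its log2 fold change was 1.71 ± 1.51 (edgeR adjusted p = 0.63), and 1.35 ± 0.35 with the block (edgeR adjusted p = 0.0022). Snord21 and Snord16a were also low in replicate 3 of KO cauda, at 80.2 and 79.4 CPM against 423 to 634 and 438 to 529 CPM. Snord104, by contrast, read 74.6, 78.2 and 80.8 CPM in KO cauda.

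In fluid only 20 of 60 members passed the filter on low counts, and each result rests on few reads. KO against WT corpus fluid gave 2 called members, both higher, against 19.7% of all RNAs called and 13.4% called higher. Snord2 had 0, 5 and 2 counts in WT corpus fluid (0, 0.47 and 0.40 CPM) and 9, 20 and 4 counts in KO (3.61, 5.40 and 1.66 CPM), without overlap (log2 fold change 3.51 ± 0.91, edgeR adjusted p = 0.0099). Snord37 had 2, 3 and 3 counts in WT and 5, 14 and 4 in KO, or 0.30, 0.28 and 0.60 CPM against 2.005, 3.78 and 1.66 CPM (log2 fold change 2.71 ± 0.80, edgeR adjusted p = 0.021). The filter works on depth-scaled counts and can be passed through 1 group of 3 libraries. The KO corpus libraries were shallow, at 1948718 to 3373869 summed counts. Whether Snord2 or Snord37 entered the test through these libraries alone was not checked. The calls may rest partly on the filter, so no conclusion is drawn from them. Snord118 missed the threshold, with 1.66 ± 0.59 (edgeR adjusted p = 0.05001), and its KO replicate 3 held 2 counts. The median of the 20 was 1.07, against 0.10 for all RNAs, and 8 of 20 had groups that did not overlap, all higher in KO, against 20.4% of all RNAs. An unadjusted p below 0.05 was found for 8 of 20, against 33.8%, and DESeq2 called 3 of 38, against 19.7%. With the 2 groups fitted alone, 8 members passed the filter and 0 were called, against 19% of all RNAs. The count was also 0 without WT replicate 1 or KO replicate 2, against 9.45% and 12.6%, and 1 without WT replicate 2 or KO replicate 1, against 11.4% and 10.7%. MicroRNAs had a median log2 fold change of 1.06 in this comparison and miscellaneous RNAs 1.07. Summed marker microRNAs were also higher in KO corpus fluid without overlap, at 87.5 to 134 against 27.1 to 62.5 CPM for epithelium, 12.8 to 15.4 against 3.58 to 9.06 CPM for germ cells and 20.05 to 79.9 against 13.6 to 19.6 CPM for leukocytes, and their part in the result was not tested.

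In caput and cauda fluid 0 of 20 members were called between KO and WT by edgeR, against 0% of all RNAs in both, and 0 by DESeq2, against 0.39% in caput and 3.05% in cauda. In caput fluid 1 member had an unadjusted p below 0.05, against 10.6% of all RNAs, namely Snord22 with 55, 58 and 72 counts in WT and 37, 82 and 39 in KO (7.32, 10.1 and 10.8 against 3.48, 6.75 and 5.28 CPM; log2 fold change -0.86 ± 0.39, edgeR adjusted p = 0.43). Snord118 (1.10) and Snord13 (1.17) came next. In cauda fluid 0 members had an unadjusted p below 0.05, against 9.29% of all RNAs. Snord83b (1.86), Snord2 (1.28) and Snord65 (0.91) had the smallest p there, at edgeR adjusted p of 0.51 to 0.69. The interaction of KO effect and segment gave 0 called by edgeR and DESeq2, against 0% and 1.17% of all RNAs, and 1 member with an unadjusted p below 0.05, against 10.9%, namely Snord83b (2.96 ± 1.27, edgeR adjusted p = 0.37).

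Along WT fluid, 3 members were called in cauda against caput, against 25.1% of all RNAs. Snord50a had 11, 5 and 12 counts in caput and 96, 48 and 25 in cauda (1.46, 0.87 and 1.80 against 8.83, 4.22 and 4.25 CPM), all cauda libraries being higher (log2 fold change 2.05 ± 0.52, edgeR adjusted p = 0.0068). Snord50b, whose reads largely match Snord50a too, also rose (2.28 ± 0.52, edgeR adjusted p = 0.0035). Snord2 went the other way, with 12, 5 and 29 counts in caput and 0, 6 and 3 in cauda (1.60, 0.87 and 4.34 against 0, 0.53 and 0.51 CPM; log2 fold change -2.73 ± 0.86, edgeR adjusted p = 0.024). DESeq2 called 4 of 41 members, against 23% of all RNAs. Marker microRNAs were higher in WT cauda than in WT caput fluid without overlap for germ cells (15.1 to 31.6 against 1.995 to 3.5 CPM), smooth muscle (147 to 321 against 76.8 to 138 CPM), leukocytes (22.3 to 43.04 against 8.38 to 11.3 CPM) and red blood cells (40.8 to 62.1 against 23.8 to 25.01 CPM), and their part in the result was not tested.

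In WT corpus against caput fluid 2 members were called, both lower in corpus, against 17.7% of all RNAs called and 9.54% called lower. Snord2 had 0, 5 and 2 counts in corpus (log2 fold change -2.85 ± 0.89, edgeR adjusted p = 0.031). Snord22 had 27, 50 and 19 counts in corpus, or 4.03, 4.71 and 3.82 CPM, below all caput libraries (-1.16 ± 0.40, edgeR adjusted p = 0.048), and Snord15b did not pass (1.23, edgeR adjusted p = 0.084). DESeq2 called 3 of 40, against 16.2%. The edgeR count was 1 without WT caput replicate 2, against 8.75% of all RNAs, and 0 without any other single library, against 8.23% to 10.5%. Epithelial microRNAs were lower in WT corpus than in WT caput fluid without overlap, at 27.1 to 62.5 against 103 to 182 CPM. Germ cell (3.58 to 9.06 against 1.995 to 3.5 CPM) and leukocyte ones (13.6 to 19.6 against 8.38 to 11.3 CPM) were higher without overlap. Their part in the result was not tested. In KO cauda against caput fluid 0 members were called by edgeR and DESeq2, against 26% and 22.5% of all RNAs, and 3 had an unadjusted p below 0.05, against 41.2% of all RNAs. These were Snord118 (-1.28), Snord49b (-2.06) and Snord13 (-1.50), at edgeR adjusted p of 0.076 to 0.11. Snord50b had 0.95 in KO (edgeR adjusted p = 0.15), and its segment difference was not shown to depend on genotype (interaction -1.33 ± 0.71, edgeR adjusted p = 0.48).

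In cauda sperm the Snord rows took 0.219%, 0.121%, 0.207% and 0.844% of counts in WT and 0.122%, 0.303%, 0.308% and 0.350% in KO. WT replicate 4 lay above all other libraries, and KO replicate 1 overlapped the other WT libraries. 79 members passed the filter. edgeR called 0 of 79, against 0% of all RNAs, 1 had an unadjusted p below 0.05, against 17.5%, and DESeq2 called 0, against 4.6% of all RNAs. The median log2 fold change was -0.14, with 26 of 79 positive, against 49.8% of all RNAs. Snord89 had the smallest p, at 0.595, 0.780, 2.11 and 33.2 CPM in WT and 2.73, 0.862, 0.933 and 1.03 CPM in KO (log2 fold change -2.66 ± 1.08, edgeR adjusted p = 0.22). Snord45b (-1.58) and Snord92 (-0.92) followed.

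Those values rested on WT replicate 4. Without it the median log2 fold change was 0.98, 79 of 80 members were positive and 10 were called, all higher in KO, against 11.5% of all RNAs called. The members' share called was thus near that of all RNAs. In fits with 1 library left out the members' median stood at most 0.71 above that of all RNAs, so part of the 0.98 was shared. Without WT replicate 4 Snord89 had 0.77 (edgeR adjusted p = 0.44) and Snord45b 0.39 (edgeR adjusted p = 0.59). The 10 included Snord104, at 94.2, 32.8 and 89.3 CPM in WT replicates 1 to 3, 1379 CPM in replicate 4 and 227, 169, 214 and 454 CPM in KO. Snord104 in KO thus lay above the first 3 WT libraries and below the last. In WT replicate 4 the summed H/ACA box snoRNAs were 688 CPM, against 157 to 263 CPM in the other WT libraries, and summed epithelial miR-200 microRNAs were 23.8 against 6.24 to 19.2 CPM. The germ cell microRNAs stood at 32.9 CPM, within the 17.9 to 47.2 CPM of the other WT libraries. WT replicates 2, 3 and 4 and KO replicate 4 held 1134840 to 3618739 summed counts, and the others 42764979 to 62128314. The part of depth and of these other RNAs in the result was not tested.

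**Figure D5:**
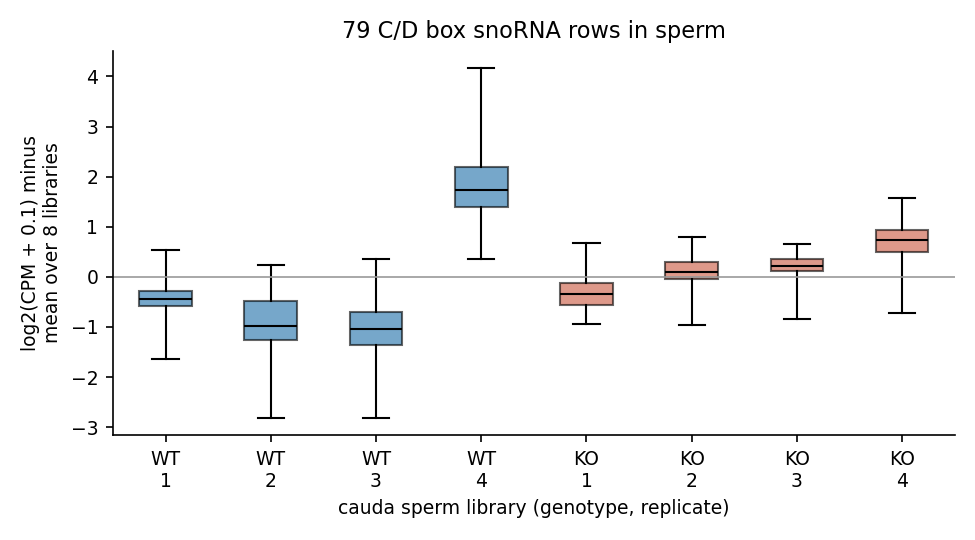
Deviation of the 79 tested C/D box snoRNA rows in each sperm library from their mean over the 8 libraries, on the log2(CPM + 0.1) scale. Boxes give median and quartiles and whiskers the full range; the median lies at 1.72 in WT replicate 4, at -1.05 to -0.44 in the other WT libraries and at -0.35 to 0.73 in KO.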

How the data were processed

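The authors trimmed reads with cutadapt and mapped them with bowtie2 (up to 100 places) to mm10 in a modified tRAX pipeline, taking all best mappings of non-tRNA reads of at least 16 nt. Reads that matched tRNA or rRNA best were kept for those. Tool versions are not given in the sources used here. The deposited values are raw counts per RNA, 1 table each for tissue, fluid and sperm. Here, each table was fitted whole with edgeR 4.0.16 in R 4.3.3 (filterByExpr with a minimum count of 10 and minimum total of 15, TMM, quasi-likelihood test, Benjamini-Hochberg over all RNAs tested), and DESeq2 1.42.0 served as an alternative. Fits with the replicate block held only the groups compared, with their own filter, scaling and estimate of spread. They differ from the main fit by more than the block. An RNA was called when its adjusted p was below 0.05 and its log2 fold change exceeded 1 in size. The edgeR step was tested on simulated data.

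Members, lists, named RNAs and shown sequences were chosen with earlier results of these data known. Named were up to 10 called members per direction, otherwise the 3 with the smallest p, the 8 highest per length, the processing snoRNAs and host groups. Replicate numbers from the titles were taken to pair libraries where at least 3 pairs all had a deviation correlation above 0.1. This held for KO against WT cauda tissue (0.28, 0.27 and 0.60) and for the tissue segment comparisons (0.18 to 0.63). Deviations were taken from each group's own mean, so a shared departure of replicate 3 also raises the values of numbers 1 and 2. Libraries of unlike number were not correlated, so pairing by number was not shown. Other alternatives changed scaling, filter, libraries and fit. The study calls its replicates biological, but how tissue libraries map to mice is not given in the sources used here, so p-values measure spread between libraries. No 2 libraries of a group agreed within sampling noise.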

Additional observations from a re-analysis of the deposited data

Results flagged for a closer look

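In cauda sperm WT replicate 4 lay far from the other WT libraries. The gap to its nearest neighbour, as a part of the range over the 4 WT libraries, was 0.864 for the summed share of counts on Snord rows. It was 0.853 for the summed Scarna-named small Cajal body RNAs. For single members the gap was 0.954 for Snord89, 0.966 for Snord13, 0.954 for Snord104, 0.898 for Snord80, 0.91 for Snord14c, 0.917 for Snord14d, 0.913 for Snord37, 0.932 for Snord96a, 0.879 for Snord33, 0.924 for Snord118 and 0.911 for Snord2. Snord13 read 7.68, 10.1 and 5.28 CPM in WT replicates 1 to 3 and 147 CPM in replicate 4, and Snord96a 60.4, 44.5 and 31.7 CPM against 452 CPM. Of the 79 tested members 52 had WT replicate 4 this far out, where chance gives about 1 group in 20, and members of 1 library are not independent.

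In KO sperm, replicate 1 stood out for Snord89, at 2.73 CPM against 0.862 to 1.03 CPM in the other KO libraries, a gap of 0.91 of the range. Of the 79 members 3 stood out through KO replicate 1 and 3 through KO replicate 4.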

How the results depend on the processing

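The direction of the members' median for KO against WT cauda tissue held in every setting run, and the number of called members did not. Shares of all RNAs called under the same setting stand in brackets. For KO against WT cauda tissue the number was 0 as reported [0.86%], 17 with DESeq2 [7.74%], 1 with the groups fitted alone [0.721%], 50 with the replicate block [14.4%], 10 with that block and library size only [16.9%], 20 without the replicate 3 libraries [8.56%] and 0 to 8 when 1 library was left out [0.55% to 2.21%]. For WT cauda against caput tissue it was 1 [23%], with 6 under the block [29.9%], 6 under the block with library size only [35.6%], 2 without the replicate 3 libraries [26.4%] and 1 to 3 with 1 library left out [16.4% to 23%], 3 without WT caput replicate 3. For WT corpus against caput tissue it was 1 [11.8%], with 0 for the groups alone [7.47%], 10 under the block [17.8%], 10 without the replicate 3 libraries [23.2%] and 0 to 3 with 1 library left out [7.12% to 11.8%], 3 without WT corpus replicate 2. For KO cauda against caput tissue it was 15 [25.7%], with 1 under library size only [29.6%], 4 under TMM factors from other RNAs [36.2%], 9 without a filter on low counts [19.6%], 32 under the block [30.9%], 8 under the block with library size only [53.3%], 43 without the replicate 3 libraries [36.6%] and 1 to 30 with 1 library left out [18.8% to 31%]. Settings that pair a block with library size, or drop the replicate 3 libraries, were chosen after seeing the data.

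For KO against WT corpus fluid the number was 2 [19.7%], with 1 under TMM factors from other RNAs [30.2%], 0 for the groups alone [19%], 0 under the block [24.1%] and 0 to 3 with 1 library left out [9.45% to 13.5%]. For WT corpus against caput fluid it was 2 [17.7%], with 1 under DESeq2 size factors [17.2%], 0 under library size only [12.8%], 1 under TMM factors from other RNAs [16.2%], 1 without the filter [10.1%] and 0 to 1 with 1 library left out [8.23% to 10.5%]. For KO cauda against caput fluid it was 0 [26%], with 1 under TMM factors from other RNAs [27.6%], 1 for the groups alone [24.2%] and 0 to 1 with 1 library left out [12.3% to 20.6%]. For sperm it was 0 to 10 with 1 library left out [0% to 11.5%], 10 without WT replicate 4. The log2 ratio of KO to WT shares in corpus fluid was 0.36 with Ensembl-named small RNAs as denominator. The replicate block did not mark pairs in fluid, sperm, caput KO against WT or corpus tissue, where the numbers did not deviate together in every pair, and called 0 sperm members with a median log2 fold change of 0.30.

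With 1 library left out, the log2 fold change of Snord65 in cauda fluid ran from -0.31 to 1.44, that of Snord89 in sperm from -3.03 to 0.77 over the 4 fits in which it passed the filter, and that of Snord45b in sperm from -2.10 to 0.39. These changed sign without KO cauda fluid replicate 3 and without WT sperm replicate 4. For named members, settings other than leaving out 1 library kept 406 values on their side of the threshold, with 39 calls lost and 19 gained. With 1 library left out, 280 values kept their side, 63 lost the call, 7 gained it and 3 changed sign. Many named members were not called in the main fit, so keeping a side often meant staying uncalled. The cause of these changes was not tested. Fluid depth, 195 to 906 member counts a library, limits what could be detected there.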
